A study of Drosophila melanogaster with 2 samples.

Results

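The muscle regulator gene Mef2 and 6 genes of myoblast fusion, kirre, rst, sns, hbs, rols and blow, were chosen by symbol and with earlier results of these peak lists known. They are 7 of 13945 protein-coding genes on the 6 chromosomes of the lists. The assay was chromatin immunoprecipitation followed by sequencing (ChIP-seq) of Repo, a homeodomain transcription factor of glial cells. Chromatin came from whole embryos of a transgenic fly line in which Repo carries GFP at its C-terminus, both sexes and 0 to 24 hours old, and the tag was pulled down with anti-GFP. There was 1 group, with biological replicates 1 and 3 (n = 2), both from this line. The labels do not say whether untagged Repo was also present, and no second genotype, stage or input was analysed here. Whole embryos contain muscle, epidermis, neurons and many other cells beside glia, so the cell type in which a peak arose cannot be told from these lists.

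Skeletal muscle of Drosophila forms when a founder myoblast fuses with several fusion-competent myoblasts. The founder cell displays the immunoglobulin-domain receptors Kirre (Dumbfounded) and Rst (Roughest), which bind Sns (Sticks and stones) and Hbs (Hibris) on the fusion-competent cell. Inside the founder cell the adaptor Rols (Antisocial) binds Kirre, and in the fusion-competent cell Blow (Blown fuse) acts on the actin machinery of the fusion site. Mef2 is the MADS-box transcription factor needed for muscle differentiation, and it is also present in some neurons.

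A peak was assigned to a gene when its summit lay between 2 kb upstream of the gene and the gene's end. By that rule 3 of the 7 genes, Mef2, kirre and rols, held a summit of the authors' optimal list, the 2697 peaks kept after a reproducibility threshold. They held 18 optimal peaks in all: 10 at kirre, 5 at Mef2 and 3 at rols. The receptor gene rst, the partner genes sns and hbs and the actin regulator gene blow held 0. Over all protein-coding genes, 19.7% held an optimal summit. The members were picked with these counts known, so nothing is read from 3 of 7 against that share. Longer genes more often held a summit: sorted by interval length into 10 groups of equal size, 41.3% of the genes in the longest group did, which contains 6 of the 7 members, and 30.7% in the next longest, which contains blow. By the 2697 highest peaks of each replicate's own list, 3 of the 7 were bound in replicate 1, against 20.1% of all genes, and 4 in replicate 3, against 19.5%. The additional gene in replicate 3 was sns.

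The peaks of kirre and rols that the results turn on are shown as the plus strand of the dm6 reference, 100 bp either side of the summit. Capitals mark matches to the 17 searched motifs, and a window with no capitals holds none of them. The windows at kirre are those of its strongest peak, of the peak at the promoter of the overlapping gene Syx4, of the peak with a match to both TAATGA and the Mef2 site, and of the single peak with the reported Repo site CAATTA, which reads TAATTG on this strand.
kirre strongest peak, chrX:3097136-3097336: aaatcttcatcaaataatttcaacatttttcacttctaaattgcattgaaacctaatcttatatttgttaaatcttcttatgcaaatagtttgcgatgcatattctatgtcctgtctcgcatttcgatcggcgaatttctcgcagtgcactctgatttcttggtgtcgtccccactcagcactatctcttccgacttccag
kirre, Syx4 promoter, chrX:2744157-2744357: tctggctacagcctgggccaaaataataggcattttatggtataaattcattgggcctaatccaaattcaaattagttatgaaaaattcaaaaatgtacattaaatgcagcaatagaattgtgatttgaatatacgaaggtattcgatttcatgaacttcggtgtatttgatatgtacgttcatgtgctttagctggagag
kirre, intron of CG32795, chrX:2787407-2787607: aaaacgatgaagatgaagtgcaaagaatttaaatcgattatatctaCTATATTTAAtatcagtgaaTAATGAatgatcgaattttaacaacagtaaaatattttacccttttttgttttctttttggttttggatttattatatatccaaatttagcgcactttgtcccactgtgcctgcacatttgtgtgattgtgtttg
kirre, CAATTA match, chrX:3068351-3068551: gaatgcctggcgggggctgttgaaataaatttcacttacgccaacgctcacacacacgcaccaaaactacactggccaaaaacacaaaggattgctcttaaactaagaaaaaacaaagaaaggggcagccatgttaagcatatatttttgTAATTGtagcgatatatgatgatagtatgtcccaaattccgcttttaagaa
The windows at rols are those of its strongest peak, with CACGTG and a Mef2 site, and of the peak at its own internal promoter.
rols strongest peak, chr3L:12037823-12038023: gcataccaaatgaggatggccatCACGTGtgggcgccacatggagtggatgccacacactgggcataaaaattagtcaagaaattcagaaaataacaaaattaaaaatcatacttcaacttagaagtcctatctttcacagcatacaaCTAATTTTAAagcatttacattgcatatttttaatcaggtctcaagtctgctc
rols internal promoter, chr3L:12056811-12057011: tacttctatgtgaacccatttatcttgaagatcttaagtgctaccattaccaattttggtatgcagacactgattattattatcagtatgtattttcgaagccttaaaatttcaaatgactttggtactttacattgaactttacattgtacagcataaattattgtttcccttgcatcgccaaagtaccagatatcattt

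kirre, the founder-cell receptor gene (FBgn0028369), spans X 2740384 to 3134532 on the plus strand. Its interval of 396 kb is the fifth longest of all protein-coding genes, and 21 other protein-coding genes lie inside the gene, among them rst and white (w). Of the 13945 genes, 3 held at least 10 optimal summits, and kirre was one of them. Per length the number was less exceptional: 2.52 optimal summits per 100 kb at kirre against 2.01 over the 6 chromosomes. Of the 1395 genes with the longest intervals, 33.1% had at least as many per kb. The pooled list, made from both replicates and holding 30000 peaks with background, had 61 summits at kirre, or 15.4 per 100 kb, against 22.4 over the 6 chromosomes.

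No optimal peak at kirre lay at one of its own promoters. kirre has 6 annotated transcription start sites (TSSs), and the nearest optimal summit to any of them was 2314 bp away. Only 1 of these TSSs had any pooled-list summit within 500 bp, at rank 25262 of the pooled list. The nearest protein-coding TSS was that of kirre for 3 of the 10 summits and that of another gene for 7.

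The strongest peak at kirre, X 3097115 to 3097324, had a signal value of 328, rank 162 of the optimal list. The signal value is the authors' own, on a scale that the sources do not state. It lay in a 33.3 kb intron, 2314 bp upstream of the internal TSS at 3099550. The replicates' own lists placed it at rank 129 in replicate 1 and rank 209 in replicate 3, with summits 1 and 5 bp away. At 210 bp it was the narrowest of the 18 peaks, of which 16 were 396 bp wide; 10.2% of all optimal peaks were narrower still.

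Both peaks at Syx4 lay at promoters of that gene, which encodes a syntaxin of the membrane fusion machinery, and in the 121.5 kb intron of kirre. Syx4 lies on the minus strand and overlaps the start of kirre. The peak at 2744059 to 2744454 had a signal of 228 and its summit 181 bp from a Syx4 TSS, and the peak at 2743089 to 2743484 had 143 and lay 329 bp from another. They ranked 284 and 1361 in replicate 1 and 508 and 966 in replicate 3. Their summits were 970 bp apart.

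A second close pair lay 692 bp apart in the body of CG32795, also inside that intron of kirre. These peaks, at 2786617 to 2787012 and 2787309 to 2787704, had signals of 187 and 136. Both ranked higher in replicate 3 (468 and 897) than in replicate 1 (833 and 1644). Thus 4 of the 18 peaks had another optimal summit within 1000 bp, where 13.1% of all optimal peaks did.

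The third promoter peak in the interval, at 2919768 to 2920163 with a signal of 112, lay 153 bp from the TSS of CG3588. It ranked 1285 in replicate 1 and 2070 in replicate 3. The other 4 peaks lay in introns of kirre, with signals of 121, 104, 99.8 and 88.2, at ranks 1396, 1842, 1985 and 2485 of the optimal list. Of these, the peaks with summits at 3007917, 3025713 and 3046187 lay in one 70.6 kb intron, 18866 bp or more from any protein-coding TSS. The peak at 3068253 to 3068648 lay 889 bp from the TSS of CG4116.

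The number of high peaks at kirre differed between the replicates. Among each replicate's own 2697 highest peaks, 8 summits at kirre came from replicate 1 and 14 from replicate 3. Of the peaks of replicate 3, 4 had no counterpart in the optimal list. Their summits were at 2861133, 3018922, 3022705 and 3024716. They ranked 2044, 2327, 2253 and 2387 in replicate 3 and 8355, 29223, 18142 and 25329 in replicate 1. The last 3 lay within the 70.6 kb intron. Replicate 1 had no such peak at kirre.

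**Figure D1:**
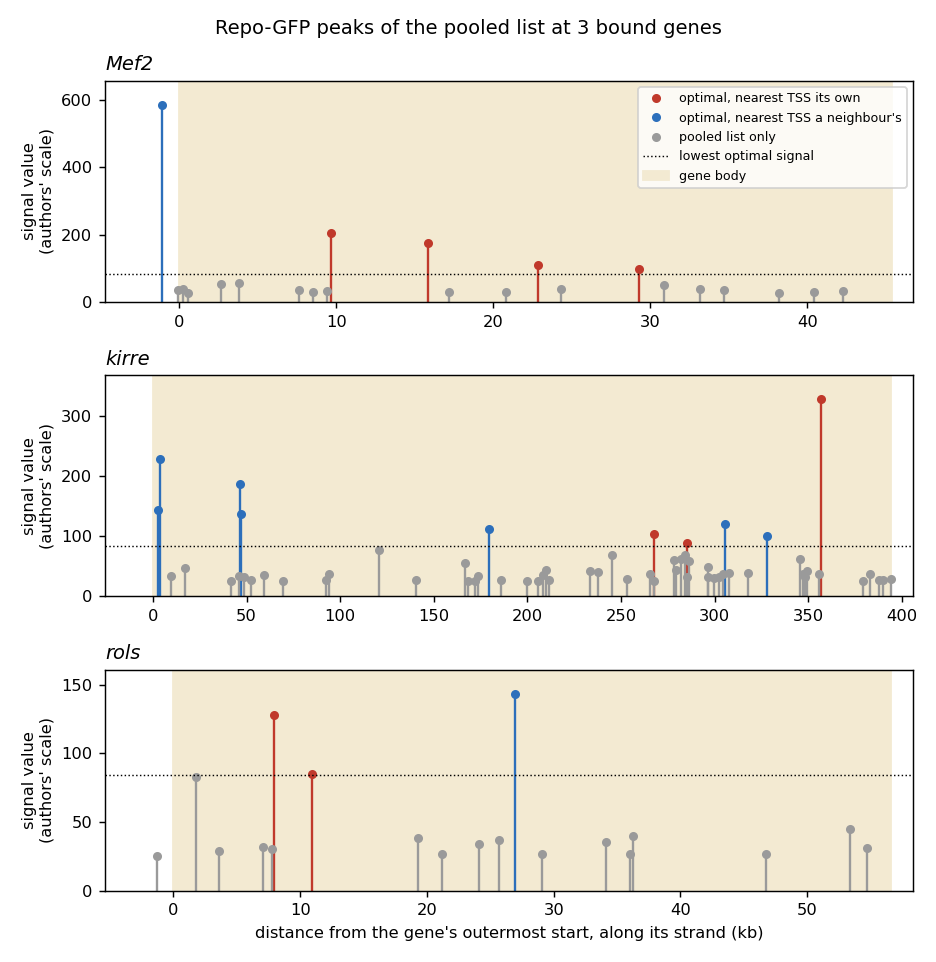
Each stem is a peak of the pooled list at Mef2, kirre or rols; the x axis is the distance of its summit from the gene's outermost start in kb, and the y axis is the authors' signal value. Red and blue stems are optimal peaks nearest to the gene's own TSS or to a neighbour's, grey stems are pooled-list peaks outside the optimal list, the dotted line is the lowest optimal signal (84.0), and the tallest stems reach 586 at Mef2, 328 at kirre and 144 at rols.

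Mef2 (FBgn0011656) lies at 2R 9913496 to 9958858 on the minus strand. Its interval of 47.4 kb held 5 optimal summits, or 10.6 per 100 kb, and 5.30% of the 1395 genes with the longest intervals had at least as many per kb. In all, 32 genes of 13945 held at least 5. The pooled list had 22 summits at Mef2.

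The highest peak, 9959707 to 9960076, had a signal of 586 and rank 45 in the optimal list. It ranked 45 in replicate 1 and 45 in replicate 3 as well. It lay outside the gene, 1065 bp upstream of the outermost Mef2 TSS. The nearer TSSs were those of its neighbours, Pal1 on the plus strand at 155 bp and Pdrg1 on the minus strand at 191 bp. Pal1 encodes an enzyme of peptide amidation. With the interval begun at the gene's start, this peak was not counted and 4 remained.

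The other 4 peaks lay inside Mef2 and nearest to its own TSSs. The peak at 9929374 to 9929769 was a promoter peak, 43 bp downstream of the internal TSS at 9929615, from which 8 of the 11 annotated Mef2 transcripts start. It was the weakest of the 5, with a signal of 97.3, and ranked 2564 in replicate 1 and 2434 in replicate 3. The peak at 9949020 to 9949415, in a 17.2 kb intron 4454 bp upstream of the internal TSS at 9944764, had a signal of 205 and ranked 484 in replicate 1 and 500 in replicate 3.

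The remaining peaks of Mef2 differed more between the replicates. The peak at 9942802 to 9943197 had a signal of 174 and lay 1764 bp downstream of the TSS at 9944764. Its summit was in the 5' UTR of the single transcript that starts there and in an intron of others. It ranked 451 in replicate 3 and 1849 in replicate 1; of all optimal peaks, 5.71% had ranks that differed by as large a ratio. The peak at 9935802 to 9936197, in a 6.37 kb intron with a signal of 111, ranked 1195 in replicate 3 and 4103 in replicate 1, a ratio reached by 8.50% of optimal peaks.

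The outermost Mef2 TSS, at 9958858, had no optimal summit within 500 bp. Its best pooled-list peak ranked 13631, with a signal of 37.8. Replicate 1 alone had a high peak there, 131 bp from the TSS at rank 2348, and replicate 3 had no peak at that summit.

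rols (FBgn0041096), the founder-cell adaptor gene, lies at 3L 12008225 to 12064859 on the minus strand and held 3 optimal peaks in 58.6 kb, or 5.12 per 100 kb. Of all genes, 184 held at least 3, and of the 1395 genes with the longest intervals 9.68% did. Of those 1395 genes, 17.3% had at least as many per kb as rols. The strongest rols peak, 12037725 to 12038120 with a signal of 144, lay in a 26.3 kb intron. It was 18551 bp from the nearest rols TSS and 4464 bp from that of CG6793. It ranked 1276 in replicate 1 and 958 in replicate 3. The peak at 12056713 to 12057108, with a signal of 128, lay 437 bp upstream of the internal TSS that 6 of the 9 rols transcripts use. It ranked 1548 in replicate 1 and 1130 in replicate 3. The outermost TSS, used by the other 3, had no pooled-list summit within 500 bp.

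The third rols peak was the member peak closest to the threshold. At 12053706 to 12054101, with a signal of 85.1, it ranked 2635 of 2697 in the optimal list, and it was the only one of the 18 below the highest −log10 q of that list. The nearest peak outside the list was also at rols, 12062860 to 12063255, with a signal of 82.6 and rank 2792 in the pooled list. It lay in an intron 1801 bp from the outermost TSS and ranked 4649 in replicate 1 and 2222 in replicate 3. Next inside was the kirre peak of 88.2 and next outside the kirre summit at 2861164 with 77.6. The threshold itself ran between signals of 84.0147 and 84.0136.

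Of the genes with 0 optimal summits, the fusion-competent cell receptor gene sns came closest. sns (FBgn0024189, 2R 8798489 to 8856091, plus strand) has a single annotated TSS, and a pooled-list peak with a signal of 76.3 had its summit 37 bp downstream of it, at rank 3234. In replicate 3 this promoter peak ranked 1654, within that list's 2697 highest. In replicate 1 it ranked 19310. So the promoter of sns was high in 1 replicate only, and the nearest optimal summit lay 51413 bp from the gene.

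blow (FBgn0004133, 2R 7580488 to 7587079, minus strand) had 5 pooled-list summits. The highest, 56 bp upstream of its outermost TSS, had a signal of 53.3 and rank 6462, and ranked 5064 in replicate 1 and 12116 in replicate 3. rst (FBgn0003285, X 2950399 to 2973834, minus strand) lies wholly inside kirre, so its 3 pooled-list summits were among the 61 of kirre. The highest was in its 3' UTR at rank 9867, and a promoter peak 13 bp from its TSS ranked 10338, 13789 in replicate 1 and 17540 in replicate 3. hbs (FBgn0287864, 2R 15011396 to 15042134, plus strand) had 7, the highest in an intron with a signal of 43.8 and rank 9819. That hbs peak ranked 12716 in replicate 3 and was missing from replicate 1. In both replicates the best peaks of rst, hbs and blow were outside the 2697 highest, between ranks 5064 and 12716. The nearest optimal summits lay 30433 bp from rst, 19131 bp from hbs and 49647 bp from blow, each within 500 bp of another gene's TSS. Among all protein-coding genes, 73.4% held a pooled-list summit, and all 7 members did.

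**Figure D2:**
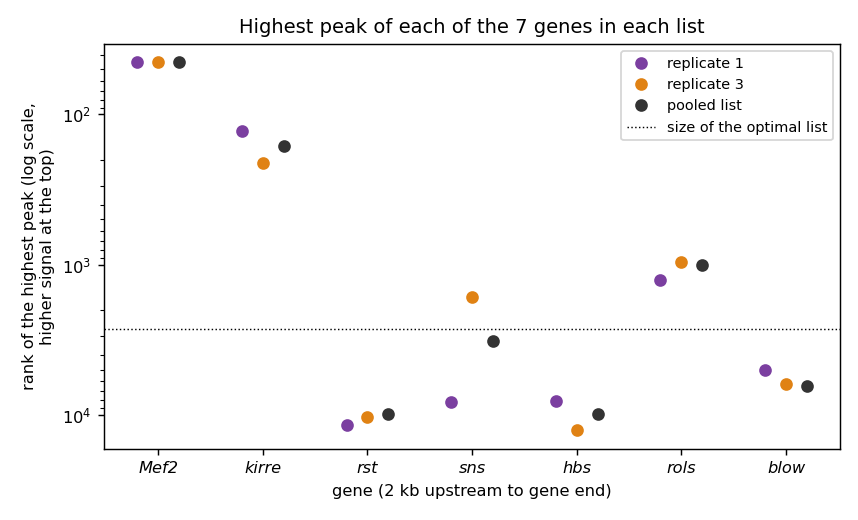
For each of the 7 genes the points give the rank of its highest peak in replicate 1, replicate 3 and the pooled list, on a log axis with the highest signal at the top; the dotted line marks 2697, the size of the optimal list. Mef2, kirre and rols are above the line in every list, sns is above it in replicate 3 only, and rst, hbs and blow are below it in every list.

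Across the 18 peaks, 11 were in introns, 6 at promoters and 1 in a 5' UTR, and 0 were in coding exons. Among all optimal peaks 29.6% were in introns, 55.1% at promoters and 0.556% in coding exons. A promoter is 500 bp either side of a protein-coding TSS. Of the 6 promoter peaks, 2 were at the gene's own TSS (Mef2 and rols, both internal TSSs) and 4 at a neighbour's (Syx4 in 2 cases, CG3588 and Pal1). By nearest TSS, 9 of the 18 belonged to the member and 9 to a neighbour. Among all protein-coding genes, 13.6% had an optimal summit within 500 bp of a TSS of their own, and of the members Mef2 and rols did. The median signal of the 18 peaks was 132, close to the 123 of all optimal peaks. The 99 weaker pooled-list peaks of the members were 67.7% intronic and 11.1% at promoters, against 30.4% and 26.4% of all pooled-list peaks outside the optimal list. The members are long genes, blow being the shortest with an interval of 8.59 kb, and the share of intron in an interval was not matched.

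Every one of the 18 peaks had its summit inside a peak of both replicates' lists, as did 99.4% of all optimal peaks. In 14 of the 18, both replicates placed it among their 2697 highest; 69.5% of all optimal peaks met this. The exceptions were the Mef2 peak at rank 4103 in replicate 1, the kirre peaks at ranks 5405 and 5188 in replicate 1 and the rols peak at rank 3135 in replicate 3. Replicate 3 ranked 10 of the peaks higher and replicate 1 ranked 7 higher. The remaining one, upstream of Mef2, had rank 45 in both. The median size of the log2 ratio of ranks was 0.69 for the 18 peaks and 0.62 for all optimal peaks. The optimal list was made from both replicates, so these agreements are not independent of it. The replicates' summits lay a median of 2.5 bp (replicate 1) and 5 bp (replicate 3) from the optimal summits, and at most 78 and 77 bp.

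**Figure D3:**
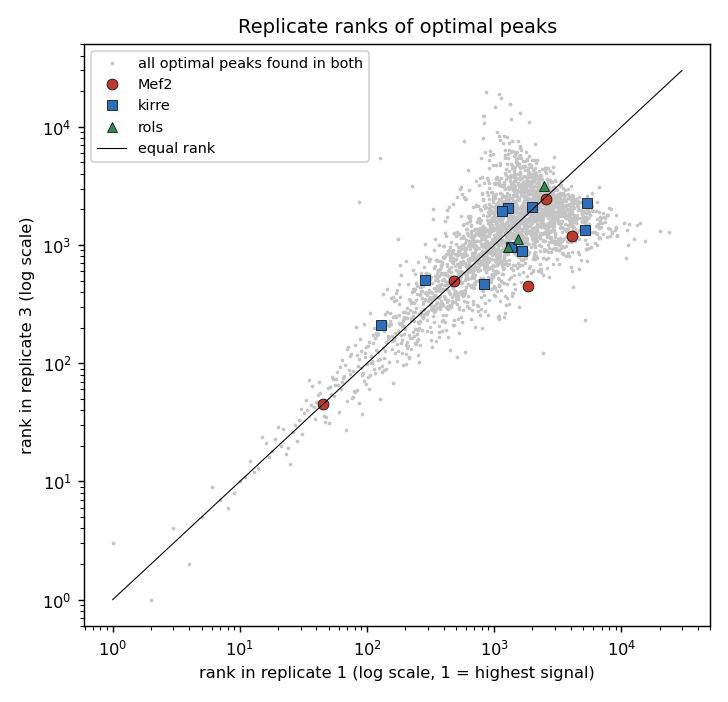
Each point is an optimal peak, with its rank in replicate 1 on the x axis and in replicate 3 on the y axis, both on log scales with 1 the highest signal; grey points are all optimal peaks found in both lists and coloured symbols those at Mef2, kirre and rols. The Mef2 peak at rank 45 in both lies on the line of equal rank. Of the coloured symbols, the Mef2 peak at 1849 and 451 and the kirre peak at 5188 and 1330 lie farthest below that line. Some grey points lie farther below it.

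Of the 17 motifs searched, 6 occurred in at least 1 of the 18 windows of 201 bp, read on both strands. The counts depended on the window. With 200 bp in place of 100 bp either side of the summit, CAATTA was in 4 windows in place of 1. The E-box CAGCTG was then in 4 in place of 0, and the homeodomain motif TAATTA in 2 in place of 0. For the wider window no share of all optimal windows is given, so its counts are not set against one. The values that follow are for 100 bp either side. The reported Repo site CAATTA was in 1 of 18 windows, 52 bp from the kirre summit at 3068451, and in 17.4% of all optimal windows. The homeodomain motif TAATGA was in 2 (kirre at 2787507 and Mef2 at 9949218), against 11.5% of optimal windows, and TAATTA in 0, against 12.1%. Together 3 of 18 windows held at least 1 of these 3, against 34.9% of all optimal windows. The Mef2 site was in 2 windows, kirre at 2787507 and rols at 12037923, and in 8.42% of optimal windows. It lay 50 bp from the kirre summit and 52 bp from the rols summit.

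E-boxes were found in 3 windows. CACGTG was in the rols window at 12037923 and the Mef2 window at 9949218, against 3.04% of optimal windows. The Mef2 window at 9949218 also held the Snail-type E-box CACCTG (6.04% of optimal windows), and that at 9936000 held the Twist-type CATATG (7.12%). CAGCTG was in 0 (10.6% of optimal windows). The promoter motifs TATCGATA of Dref (4.93%) and GGTCACAC of M1BP (3.11%) were in 0 of the 18. The GAGA factor motif GAGAGAG (5.30%), CACTTGA of Tinman (3.60%), TGAGTCA of AP-1 (2.11%), AGATAAG of GATA factors (2.08%), CAGGTAG of Zelda (0.964%), CCGGAAG of Ets factors (0.853%) and ATGCGGG of Gcm (0.742%) were in 0 as well. In all, 13 of the 18 windows held none of the 17 motifs, against 35.5% of all optimal windows. The median GC content was 36.1% in the 18 windows and 38.8% in all optimal windows. No motif match overlapped another in these windows. A match describes letters only, and a window without one says nothing about a factor.

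The wider muscle genes were taken from 3 lists written with earlier results of these data known. Of 28 genes of fusion signalling, the actin cytoskeleton and related muscle development, 15 (53.6%) held an optimal summit, against 19.7% of all protein-coding genes. Averaged over the length deciles of the listed genes, 28.9% of genes were bound. By each replicate's 2697 highest peaks, 14 of the 28 were bound in replicate 1, against 20.1% of all genes, and 12 in replicate 3, against 19.5%. In replicate 1 Ten-a and Cyfip dropped out, and Arp2, which held no optimal summit, came in. In replicate 3 dia, Pak and siz dropped out. At 11 of the 28 genes a summit lay within 500 bp of an own TSS, against 13.6% of all genes. The highest signals were at Pak3 (348, a kinase gene, intron), mbl (232, a splicing regulator gene), Arp3 (201, an actin nucleator subunit gene) and mbc (199, which encodes a Rac activator of the fusion site). The summits at Arp3 and mbc lay 195 and 174 bp from their own TSSs, but nearer to those of msk (82 bp) and Nup98-96 (30 bp). Those at Rho1 and Hem lay 48 and 274 bp from their own TSSs, but nearer to those of CG8414 (31 bp) and IleRS (196 bp). The median strongest signal of the 15 was 123, and of all bound genes 134. No test was made of this list.

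Of 24 muscle identity and specification factors, 4 (16.7%) held an optimal summit, against 19.7% of all genes and 31.3% averaged over their length deciles. They were N, the receptor gene next to kirre on X (251), how (117, an RNA-binding protein gene), Dr (94.4, a homeobox gene) and bin (84.3, a forkhead factor gene). The summit at N lay in an intron, 27649 bp from its own TSS and 10621 bp from that of CG18508. By the replicates' own highest peaks, 5 of the 24 were bound in replicate 1, against 20.1% of all genes, and 4 in replicate 3, against 19.5%. Only N and how were bound in both. Dr, htl and lbl were bound in replicate 1 only, and bin and sd in replicate 3 only. Of 24 sarcomere genes, 4 (16.7%) held an optimal summit, against 19.7% of all genes and 30.8% averaged over their length deciles. These were Msp300 (310, a giant nesprin gene, 330 bp from its TSS), sls (189.9, the titin-like gene, 290 bp from its TSS), Actn (126, alpha-actinin) and Tm1 (92.9, a tropomyosin gene). By the replicates' own highest peaks, 4 were bound in replicate 1, against 20.1% of all genes, and 3 in replicate 3, against 19.5%. Tm1 was not bound in replicate 3, where its peak ranked 5480. The summit at Actn lay 809 bp from its own TSS and 190 bp from that of usp.

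The genes most like each bound member, by the same number of optimal summits and the nearest strongest signal on the log2 scale, were as follows. Of 17 other genes with 5 summits, Tlk (612, a kinase gene), Trl (516, the GAGA factor gene) and dnc (488, a cAMP phosphodiesterase gene) were nearest to Mef2. The Mef2 value in this match is the 586 of the peak at the Pal1 and Pdrg1 TSSs, whereas the strongest peak inside Mef2 had 205. CG1677 (406) was the single other gene with 10 summits, the number at kirre. Of 110 other genes with 3, Krn and Ndfip (both 144) and OtopLa (145) were nearest to rols. The intervals of Krn and Ndfip share their strongest peak, so they are 1 match and not separate ones.

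**Figure D4:**
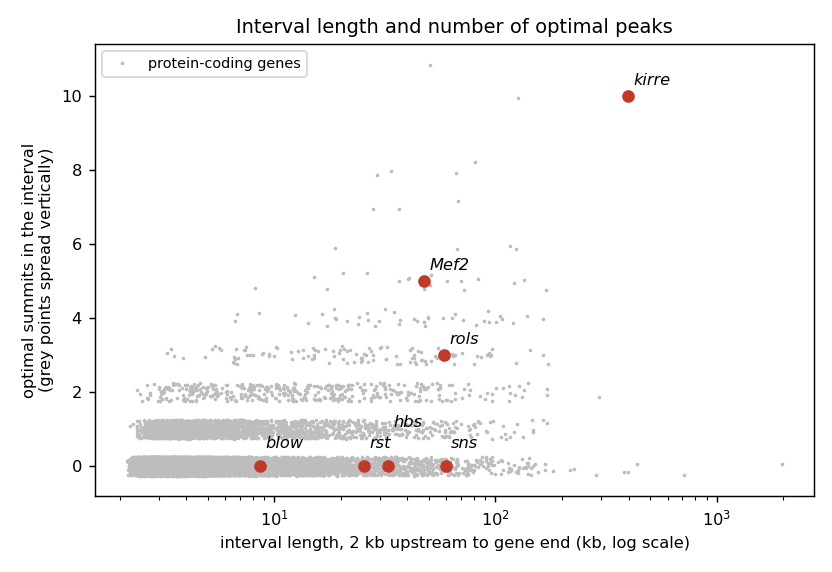
Each grey point is a protein-coding gene, with its interval length from 2 kb upstream to gene end in kb on a log x axis and its number of optimal summits on the y axis (grey points are spread vertically); red points are the 7 genes. kirre, at 396 kb, has 10 summits, Mef2 has 5 and rols 3, and the other 4 genes, between 8.59 and 59.6 kb, have 0.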

How the data were processed

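Per the labels, sonication gave fragments of 200 to 800 bp. The authors deposited peak lists on dm6: 1 list of peaks and background per replicate, a pooled list, and an optimal list kept after thresholding of the irreproducible discovery rate, per the text notes deposited with them. The aligner, the caller and its cutoff were not given in the sources used here. The deposited signal values are the authors' own, on an unstated scale, and were used to rank peaks within a list. The deposited −log10 q-values tie at their highest value in most optimal peaks and were not used for ranking. The deposited summit offsets gave summit positions. No library sizes were used, so the depth behind each peak is unknown here.

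Peaks were placed 1-based on the dm6 reference with Ensembl BDGP6 genes, with Python 3.11.15, pandas 2.3.3 and numpy 2.4.6; sequences are from the RefSeq genome of the same build. A gene was called bound by an optimal summit between 2000 bp upstream and its end. A peak was found in a replicate when its summit lay in a peak of that list; the highest-ranked was taken. Counting and the motif search were tested on simulated data. The members and lists were chosen with earlier results of these data known. There are 2 replicates and no control group, so values are described and no test was made. Named genes are the members, the gene with the TSS nearest to each of their optimal summits, up to 4 bound genes of highest signal per wider list, and the 3 genes most like each bound member. Pdrg1, white, msk, Nup98-96, usp, Rho1, CG8414, Hem and IleRS were added after seeing the values. So were Ten-a, Cyfip, Arp2, dia, Pak, siz, htl, lbl, sd and CG18508. The dm3 lists were not used here.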

Additional observations from a re-analysis of the deposited data

How the results depend on the processing

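The number of bound genes stayed between 3 and 4 under every alternative: 3 with the upper 1348 optimal peaks, any overlap of the peak, 0 or 5000 bp upstream, nearest TSS only or the 2697 highest peaks of replicate 1, and 4 with those of replicate 3, where sns had 1. Of all protein-coding genes, 11.3% were bound by the upper 1348 peaks, 20.1% by those of replicate 1 and 19.5% by those of replicate 3. For the other rules no share of all genes is given, so their counts are not set against one. With the upper 1348 peaks, Mef2 had 3 and kirre 5. By nearest TSS only, kirre had 3. Those highest peaks of 1 replicate gave 8 to 14 at kirre, 5 at Mef2, 3 at rols, 0 to 1 at sns and 0 at rst, hbs and blow. The optimal list was not remade without a replicate. The equal counts did not hold the same peaks. In replicate 1 the Mef2 summit at 9936000 (rank 4103) dropped out, and 9958727 (rank 2348), outside the optimal list, came in. In replicate 3 the rols summit at 12053904 (rank 3135) dropped out, and 12063031 (rank 2222), also outside that list, came in. Peaks at promoters numbered 7 with 1000 bp and 6 with TSSs of any annotated gene. All 18 peaks were found in both replicates when at least 0.5 of the peak had to be overlapped. With 200 bp either side of the summit, CAATTA was in 4 of the 18 windows and the E-box CAGCTG in 4. The homeodomain motif TAATTA was in 2, the GAGA factor motif GAGAGAG in 2, the E-box CACCTG in 2 and the Zelda motif CAGGTAG in 1; the other 11 motifs stayed within 1.5 times of their count. No paired analysis was possible because the series holds 1 group and no test was made. The depth of the libraries is unknown here, so a gene without an optimal peak, such as sns, cannot be called free of Repo-GFP.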
